A study of Homo sapiens with 6 samples.

Results

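The occupancy of BRD8 was set against that of CTCF in Calu3, a human lung adenocarcinoma cell line, by chromatin immunoprecipitation followed by sequencing (ChIP-seq). Cells were untreated and grown in DMEM with 10% FBS, and each protein was precipitated in 2 replicates, with an Active Motif antibody for BRD8 and a Millipore antibody for CTCF. The BRD8 list held 9769 peaks and the CTCF list 16413, each a single list that the authors made from both replicates on the human genome build hg19. A further list, BRD8 in the bronchial epithelial line 16HBE14o- (untreated, the same medium, 2 replicates, 9505 peaks), served as a second readout. Peaks of a list that overlapped by at least 1 bp were joined into a region, which kept the summit and the signal of its strongest peak. This gave 8184 BRD8 regions and 16071 CTCF regions, out of 33759 regions in the 3 lists. A BRD8 region was taken as co-occupied where it overlapped a CTCF region by at least 1 bp, which held for 5780 regions, and 2404 regions had no listed CTCF. Since no value per replicate was used, no test across replicates could be made, the depth behind each list is unknown, and the 95% intervals given with shares reflect counting error alone. The labels do not say whether replicates were separate cultures. Regions are not replicates, and nothing in a peak list checks the identity of the cell line.

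BRD8 is a bromodomain protein of the NuA4/TIP60 complex, which acetylates histones and exchanges histone variants at chromatin. CTCF, which has many zinc fingers, recognises a long, directional DNA motif and halts the cohesin ring so that chromatin loops and domain boundaries form at its sites. CTCF sites are largely common to different cell types, while chromatin regulators such as NuA4/TIP60 are known mainly from promoters and enhancers.

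Most BRD8 regions in Calu3 touched a CTCF region, and the stronger the BRD8 signal, the larger was this share. Of all BRD8 regions 70.6% were co-occupied (95% exact interval 69.6 to 71.6%), and 36.4% of CTCF regions carried BRD8 (35.7 to 37.2%). These shares depend on the overlap rule. Where each region had to cover at least 50% of the other, they were 39.3% and 20.0%. Where summits had to lie within 100 bp, they were 63.7% and 32.4%. The 50% rule also turns on region width, since most BRD8 peaks are 476 bp wide and most CTCF peaks 290 bp. The part of width in the lower shares was not tested. Regions were nearly always matched singly: 5703 co-occupied BRD8 regions met a single CTCF region and 77 met 2, and only 6 CTCF regions met 2 BRD8 regions. Regions were ranked by the authors' signal within each list and divided into 10 deciles. In the strongest BRD8 decile 94.0% of 818 regions were co-occupied (92.2 to 95.5%), in decile 5 it was 75.9% (72.8 to 78.8%) and in the weakest 40.0% (36.6 to 43.4%). The share was lower in each decile than in the stronger decile before it. The 133 strongest BRD8 regions were all co-occupied, and the first region without CTCF ranked 134.

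From the side of CTCF the decline was not even. Of the strongest CTCF decile 73.7% carried BRD8 (71.5 to 75.8%), and of the second 52.3% (49.9 to 54.8%). Deciles 3, 4 and 5 then lay level, at 40.1%, 40.7% and 40.6%, with intervals that overlapped throughout. The share went on falling from 35.9% in decile 6 to 11.1% in the weakest (9.58 to 12.7%). Strong CTCF did not always come with listed BRD8: of the 100 strongest CTCF regions 13 had none.

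**Figure D1:**
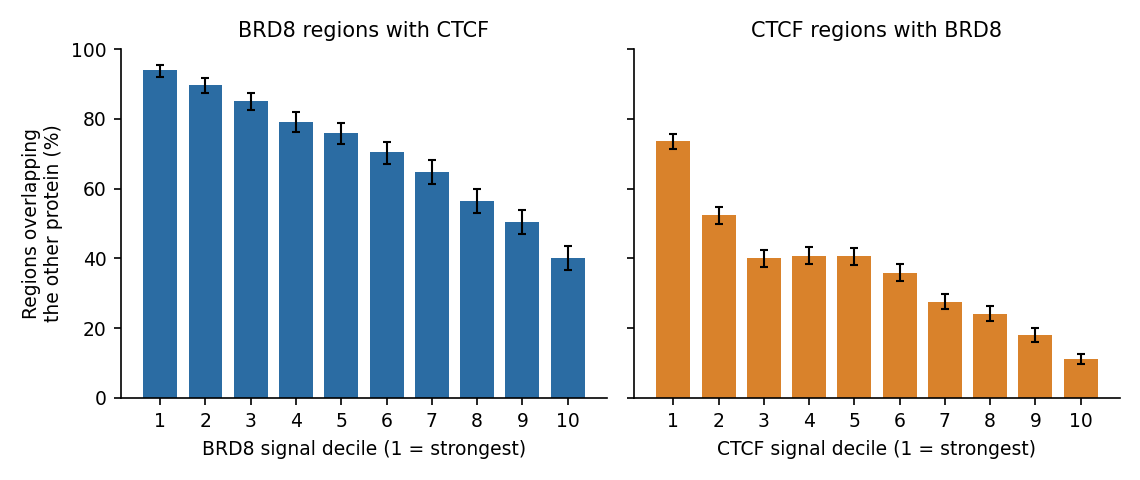
Share of BRD8 regions overlapping CTCF by decile of BRD8 signal (left) and of CTCF regions overlapping BRD8 by decile of CTCF signal (right), in %, with 95% exact intervals as error bars and decile 1 the strongest. The left bars fall from 94.0% to 40.0% step by step, and the right bars from 73.7% to 11.1% with a level stretch in deciles 3 to 5.

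At co-occupied regions the ranks of the 2 proteins rose together, but loosely. For this, each BRD8 region was paired with the strongest CTCF region it overlapped, and ranks were written as percentiles of the whole list, 100 being the strongest. Over 5780 pairs Spearman's rho was 0.31 and Pearson's r of the percentiles 0.29, given as a description. Among the upper 50% of each list rho was 0.20. The pairs share the cell line and the genome positions, where DNA accessibility, mappability and copy number could act on both signals, and the part of these in the relation was not tested. The BRD8 and CTCF percentiles differed by at most 10 points at 1557 regions (26.9%) and by more than 50 points at 787 (13.6%). The median CTCF percentile of co-occupied regions was 66.3, against 39.9 for CTCF regions without BRD8.

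The relation was seen mainly in the stronger part of the BRD8 list. The median CTCF percentile was 85.8 in the strongest BRD8 decile (quartiles 64.1 and 96.7), 74.9 in the second and 67.8 in the third. In deciles 6 to 10 it lay between 51.4 and 58.5, with no steady order. Among the 3471 co-occupied regions above the BRD8 median rho was 0.26, and among the 2309 at or below it rho was 0.05. In the weakest BRD8 decile the quartiles of the CTCF percentile were 27.9 and 76.5, so weak BRD8 regions met CTCF across much of its range. With single peaks in place of merged regions the lower value turned negative, at -0.09, and the upper was 0.28.

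Each list was also divided by rank into 4 equal signal classes, class 1 being the strongest. By these classes, 998 of the 1863 co-occupied regions in BRD8 class 1 (53.6%) had CTCF of class 1, and 77 (4.13%) had CTCF of class 4. In BRD8 class 4 the 983 co-occupied regions were spread more evenly, with 298 (30.3%) at CTCF class 1 and 192 (19.5%) at CTCF class 4. Of all 5780 co-occupied regions 2343 had CTCF of class 1 and 632 had CTCF of class 4. Against these, BRD8 class 4 held a smaller part at CTCF class 1 and a larger part at CTCF class 4. On the 18 chromosomes with at least 100 co-occupied regions rho was positive on each, from 0.14 on chromosome 14 to 0.41 on chromosome 17. It was higher for pairs with summits within 50 bp (0.33, n = 4081) than for pairs further apart (0.20, n = 1699).

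**Figure D2:**
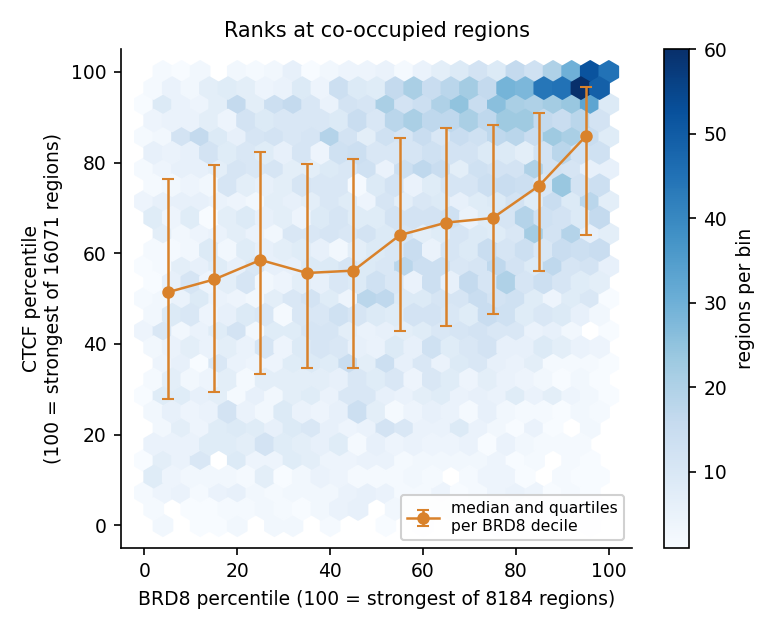
CTCF percentile against BRD8 percentile at the 5780 co-occupied regions, where 100 is the strongest end of each list. Shading gives the number of regions per hexagonal bin, and orange points with bars give the median and quartiles of the CTCF percentile per BRD8 decile, which stand at 85.8 in the strongest decile and between 51.4 and 58.5 in the 5 weakest.

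The regions of highest BRD8 signal show both the agreement and its limits. The strongest, in 20q13.32 (chromosome 20, 56784786 to 56785386), had a BRD8 signal of 330.2 and CTCF of rank 3, and in 17q12 (chromosome 17, 36762544 to 36763028) BRD8 of rank 3 met the strongest CTCF region. Of the others among the 10 strongest, most met CTCF of ranks 9 to 421, and the rest met weaker CTCF. In Xp22.2 (chromosome X, 10087435 to 10087985) BRD8 ranked 7, with a signal of 296.7. CTCF there ranked 6889 (percentile 57.1), with a signal of 40.2. In 7p15.2 (chromosome 7, 25605476 to 25606126) BRD8 ranked 10 and CTCF 3664 (percentile 77.2), with summits 3 bp apart. In 9p13.3 (chromosome 9, 33721986 to 33722528) BRD8 ranked 5 and CTCF 1923 (percentile 88.0). All 10 of the strongest BRD8 regions were also called in 16HBE14o-, against 75.5% of co-occupied regions in BRD8 class 1 and 50.1% of all BRD8 regions.

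The largest excess of BRD8 rank over CTCF rank was in 6q23.2 (chromosome 6, 133089105 to 133089791), where BRD8 of rank 360 met the weakest CTCF region of all, with summits 214 bp apart. In 5q35.3 (chromosome 5, 177503205 to 177503399) BRD8 of rank 218 met CTCF of rank 15389, 32 bp apart. The largest excess in the opposite direction was in 3q26.33 (chromosome 3, 179040460 to 179040935), where CTCF ranked 97 and BRD8 7938, 20 bp apart. In 3q21.3 (chromosome 3, 128144712 to 128145187) CTCF ranked 26 and BRD8 7796, but the summits were 382 bp apart. In 12p13.33 (chromosome 12, 2692182 to 2692657) CTCF ranked 752 and BRD8 7888, 32 bp apart. Large differences in rank thus occurred both at coinciding and at displaced summits.

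The 16HBE14o- list, which had no part in the pairing, was read at these mismatched regions. Where CTCF exceeded BRD8 by more than 50 points (593 regions, median BRD8 percentile 19.9), 68.8% were called for BRD8 in 16HBE14o- (64.9 to 72.5%), and at those called the median 16HBE14o- percentile was 69.5. Where BRD8 exceeded CTCF by more than 50 points (194 regions, median BRD8 percentile 83.2), 46.9% were called in 16HBE14o- (39.7 to 54.2%), with a median 16HBE14o- percentile of 50.6. Of the 1557 regions whose ranks differed by at most 10 points 66.0% were called (63.6 to 68.4%), and of all co-occupied regions 61.2%. At those called, the median 16HBE14o- percentile was 70.8 and 68.0, so the 69.5 of the first group was close to both. The first group was thus called about as often as regions whose 2 ranks were alike, and the second less often. The median CTCF percentile was 86.8 in the first, 18.3 in the second and 72.9 where the ranks were alike. By BRD8 signal, 45.6% of co-occupied regions were called in the weakest of the 4 classes and 75.5% in the strongest. At the 3537 co-occupied regions found in all 3 lists, rho was 0.26 between Calu3 BRD8 and CTCF, 0.28 between BRD8 of the 2 lines, and 0.36 between 16HBE14o- BRD8 and Calu3 CTCF. With the 16HBE14o- rank held fixed, the partial rho of Calu3 BRD8 and CTCF was 0.18.

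BRD8 and CTCF summits nearly coincided at co-occupied regions, and more closely at strong ones. The median distance was 31 bp (quartiles 13 and 57 bp), 43.1% lay within 25 bp (41.8 to 44.4%) and 89.9% within 100 bp (89.1 to 90.7%). By class of BRD8 signal the median was 25 bp, 30 bp, 33 bp and 45 bp from the strongest to the weakest, and the share within 50 bp went from 79.8% (77.9 to 81.6%) to 54.5% (51.4 to 57.7%). By class of CTCF signal the median went from 26 bp to 42.5 bp in the same direction. Most BRD8 peaks are 476 bp wide and most CTCF peaks 290 bp, so summits farther apart than this would still count as overlapping.

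Where a co-occupied region held more than 1 BRD8 peak (1139 regions), the strongest BRD8 summit was the closest to CTCF in 1016 of them. This is 89.2% (87.3 to 90.9%), and in 1110 of the 1139 regions the choice was between only 2 peaks. The median distance to CTCF was 33 bp from the strongest summit and 31 bp from the closest. The region of most peaks and highest rank lay in 11p11.2 (chromosome 11, 45792818 to 45794076), with 4 BRD8 peaks over 1259 bp. Its strongest summit was 35 bp from CTCF of rank 851. In 17q21.33 (chromosome 17, 48246015 to 48247454) 4 BRD8 peaks of low rank (7897) had their strongest summit 409 bp from CTCF, and in 3p21.31 (chromosome 3, 46745740 to 46747292) 4 peaks spread over 1553 bp had no CTCF within 75.1 kb. Regions of more than 1 peak made up 19.7% of co-occupied regions (18.7 to 20.8%) and 16.6% of those without CTCF (15.1 to 18.1%).

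**Figure D3:**
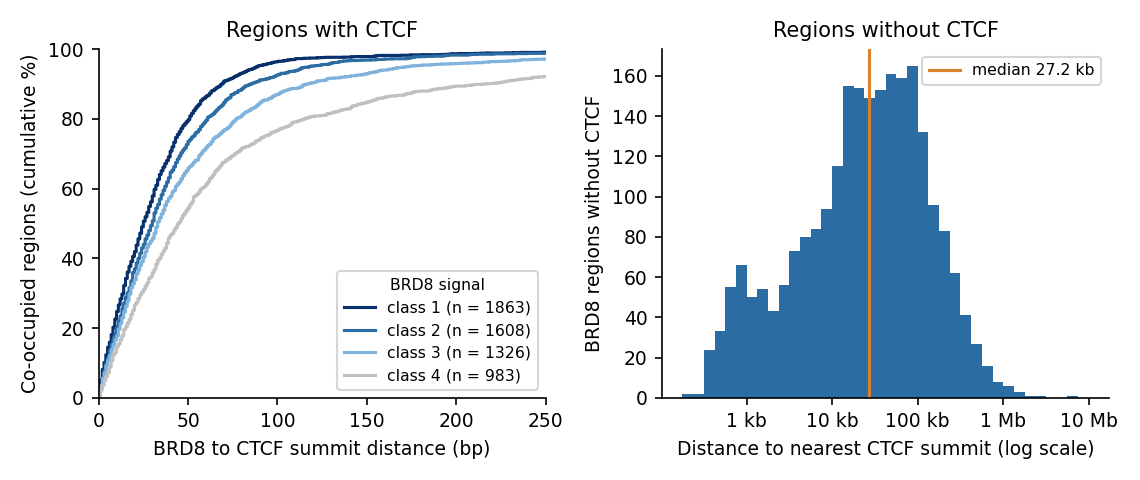
Left, cumulative share (%) of co-occupied regions by distance in bp between BRD8 and CTCF summits, 1 line per class of BRD8 signal, class 1 being the strongest. Right, number of BRD8 regions without CTCF by distance to the nearest CTCF summit on a log axis, with the median of 27.2 kb marked and a smaller rise near 1 kb.

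The 2404 BRD8 regions without listed CTCF were weaker as a group, yet not only weak. Their median BRD8 percentile was 28.5 (quartiles 12.6 and 50.8), against 59.3 for co-occupied regions (quartiles 34.7 and 80.8). The median without CTCF minus that with CTCF was -30.8 points, and -13.6 points with the reciprocal overlap of at least 50%. Their share rose from 5.99% of the strongest decile to 60.0% of the weakest. Still, 621 of them (25.8%) lay in the upper 50% of the BRD8 list, and 25 were among the 500 strongest BRD8 regions. A region without listed CTCF is not shown to lack CTCF, since a CTCF site below the authors' threshold would not be listed.

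The strongest region without CTCF lay in 1p21.3 (chromosome 1, 94801451 to 94801721; BRD8 signal 140.3, rank 134), with the nearest CTCF summit 290.2 kb away. It was also called in 16HBE14o-, at percentile 90.3 of that list. The next, in 17p11.2 (chromosome 17, 18529040 to 18529339, rank 162), had its nearest CTCF summit 335.2 kb away and was not called in 16HBE14o-. By contrast, in 17p13.1 (chromosome 17, 8286577 to 8286755, rank 174) a CTCF summit lay only 210 bp from the BRD8 summit, with regions that did not touch. Regions far from CTCF and strong in both lines were found in 2q36.1 (chromosome 2, 223555376 to 223555618, rank 220, CTCF 128.8 kb away, 16HBE14o- percentile 97.6), in 6p22.3 (chromosome 6, 15691595 to 15691788, rank 239, CTCF 300.9 kb away, percentile 94.1) and in 1q32.1 (chromosome 1, 202088183 to 202088394, rank 240, CTCF 65.7 kb away, percentile 91.7). The others of the 10 strongest lay in Xp22.2, 7p15.2, 9p24.3 and 12q24.31 and were called in 16HBE14o- too, the last at percentile 1.67. Their nearest CTCF summits were 19.9 kb, 14.3 kb, 109.5 kb and 963 bp away, in this order. In all, 8 of these 10 and 17 of the 25 among the 500 strongest were called in both lines. The share was 44.3% of all regions without CTCF in the strongest of 4 signal classes and 23.5% of all regions without CTCF. It was 75.5% of co-occupied regions in that strongest class and 50.1% of all BRD8 regions.

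Most regions without CTCF lay more than 10 kb from the nearest CTCF summit. The median distance was 27.2 kb (quartiles 7.04 and 80.4 kb). A CTCF summit lay within 10 kb of 716 regions (29.8%), and 477 regions (19.8%) had none within 100 kb. The nearest other BRD8 summit of the same regions lay at a median of 47.9 kb. Whether these regions lie farther from CTCF than other positions of the genome was not tested. A small group lay just beside CTCF: 182 regions (7.57%, 6.54 to 8.70%) had a CTCF summit within 1 kb. These near regions had a median BRD8 percentile of 13.4, against 26.3, 31.0 and 28.9 for regions 1 to 10 kb, 10 to 100 kb and over 100 kb away. They were also the least often called in 16HBE14o-, with 19 of 182 (10.4%, 6.40 to 15.8%) against 22.5% (19.0 to 26.3%), 25.1% (22.7 to 27.6%) and 25.8% (21.9 to 30.0%) in the more distant classes. Of all regions without CTCF in the weakest of the 4 signal classes 15.8% were called (13.7 to 18.1%). Low BRD8 rank and nearness to CTCF were not separated. For 63 of the 182 near regions (34.6%, 27.7 to 42.0%) the nearest CTCF region carried another BRD8 region, a share close to the 36.4% of all CTCF regions. Over all regions without CTCF the nearest CTCF region carried BRD8 in 40.6% (38.6 to 42.6%).

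BRD8 regions with CTCF were called in the second line more often than regions without it, in each class of BRD8 signal. Of all Calu3 BRD8 regions 50.1% were called in 16HBE14o-. The share was 61.2% of co-occupied regions (59.9 to 62.5%) and 23.5% of those without CTCF (21.9 to 25.3%), a difference of 37.6 percentage points (Newcombe interval 35.5 to 39.7). With the reciprocal overlap of at least 50% the share without CTCF minus that with CTCF was -12.9 points. Since co-occupied regions were also the stronger ones, the shares were compared within the 4 classes of BRD8 signal. In class 1 they were 75.5% and 44.3%, in class 2 60.6% and 33.1%, in class 3 53.4% and 23.9% and in class 4 45.6% and 15.8%. The differences within classes ran from 27.5 points (22.4 to 32.4) to 31.2 points (23.7 to 38.5), so they were smaller than over the whole list and alike from class to class. A co-occupied region of class 4 was called in the second line about as often as a region without CTCF of class 1, with overlapping intervals (42.4 to 48.7% and 36.9 to 51.8%). A replicate test of these differences could not be made.

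Read the other way, 86.2% of the 4103 regions called in both lines were co-occupied, against 55.0% of the 4081 called in Calu3 alone. In percentage points this gap widened as BRD8 weakened, from 94.6% against 81.8% in class 1 to 72.7% against 37.4% in class 4. These shares count the same regions as the differences within classes above, which were alike from class to class. The widening therefore does not show a closer relation at weak BRD8. Co-occupied regions called in both lines also had the stronger CTCF within each class. In BRD8 class 1 the median CTCF percentile was 84.2 with a 16HBE14o- call and 61.5 without, and in class 4, where the BRD8 percentiles themselves were 15.3 and 13.5, it was 69.8 and 44.1. Among regions without CTCF, the 566 called in both lines had a median percentile of 40.5 in Calu3 and 44.0 in 16HBE14o-, and rho between the lines was 0.12. CTCF of 16HBE14o- was not analysed here, so all CTCF calls are those of Calu3.

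**Figure D4:**
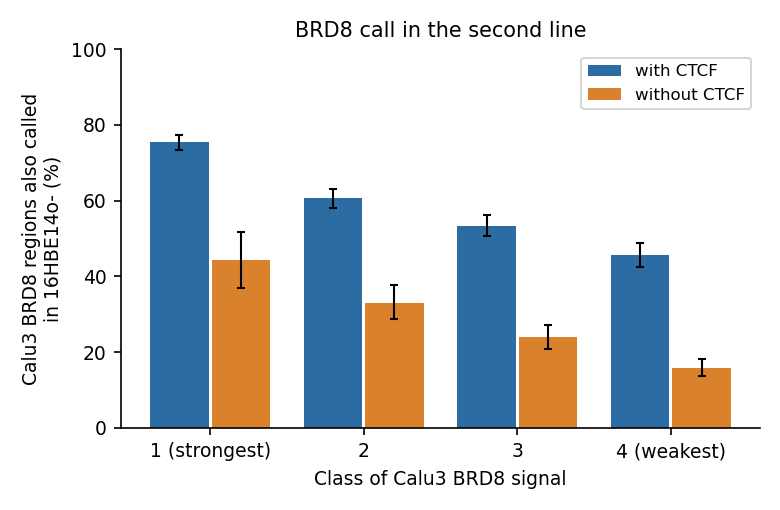
Share (%) of Calu3 BRD8 regions that were also called in 16HBE14o-, by class of Calu3 BRD8 signal (1 strongest, 4 weakest), for regions with CTCF (blue) and without (orange), with 95% exact intervals as error bars. Blue bars fall from 75.5% to 45.6% and orange bars from 44.3% to 15.8%, with blue above orange in each class.

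The share of BRD8 regions without CTCF differed between chromosomes. It was lowest on chromosomes 16 (12.3%, 8.49 to 17.2%, n = 243), 22 (16.6%, n = 205) and 15 (16.6%, n = 247), against 29.4% over all chromosomes. It was highest on chromosomes 21 (55.6%, 38.1 to 72.1%, n = 36), 4 (52.8%, 42.9 to 62.5%, n = 108) and X (48.4%, 39.4 to 57.5%, n = 126). The number of CTCF regions per BRD8 region also differed, at 1.44 on chromosome 3 and 1.63 on chromosome 10 (38.8% without CTCF), 2.53 on chromosome 15, 2.90 on chromosome 4 and 2.97 on chromosome 16, and its part in these shares was not tested. Chromosome 3 held the most BRD8 regions, 866, and the most without CTCF, 316 (36.5%, 33.3 to 39.8%), and 8.54% of those 316 were called in 16HBE14o-, against 23.5% over all chromosomes. Co-occupied regions of chromosome 3 were also called less often there, at 40.0% against 61.2%. Without chromosome 3 the co-occupied share of all BRD8 regions was 71.5% and rho 0.30.

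**Figure D5:**
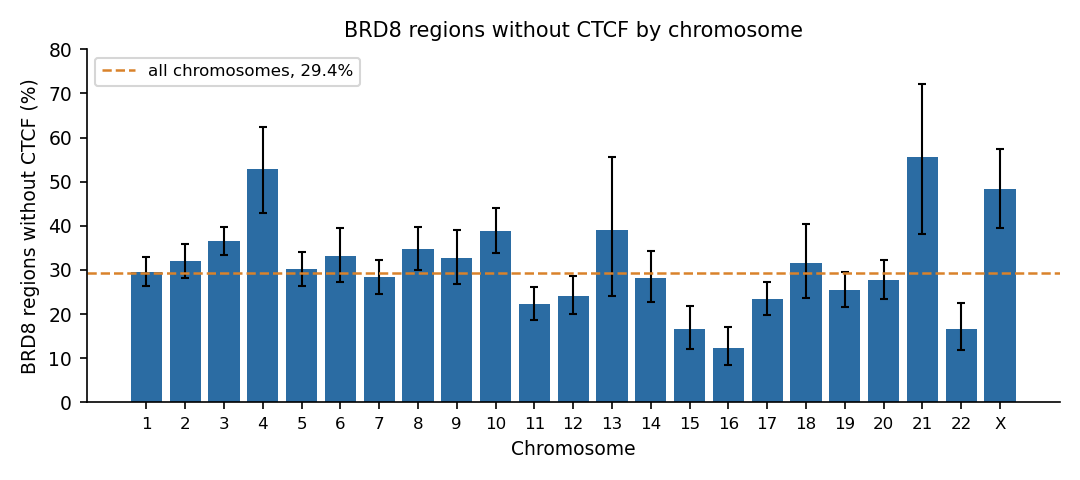
Share (%) of Calu3 BRD8 regions without CTCF on each chromosome, with 95% exact intervals as error bars and the share over all chromosomes (29.4%) as a dashed line. Chromosomes 11, 12, 15, 16, 17 and 22 lie below the line with their whole intervals, and chromosomes 3, 4, 8, 10, 21 and X above it.

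The darkest Giemsa bands, which are known as gene-poor and late replicating, held 340 of the 8184 BRD8 regions and 881 of the 16071 CTCF regions. A somewhat larger part of these BRD8 regions had no CTCF. In unstained bands 1442 of 5019 BRD8 regions lacked CTCF (28.7%, 27.5 to 30.0%). In the darkest class it was 119 of 340 (35.0%, 29.9 to 40.3%), with intervals that just touch. In the classes between, from lightest to darkest, the share was 27.0%, 30.4% and 33.3%. Within the darkest bands co-occupied regions were called in 16HBE14o- at 48.4%, against 63.3% in unstained bands, and regions without CTCF at 16.8% against 23.4%.

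The bands with the most BRD8 regions without CTCF were 8q24.3 (40 of 107 BRD8 regions), 10q11.22 (24 of 36), 1q32.1 (24 of 90), 19q13.33 (23 of 67) and 19q13.2 (22 of 97). Beside the 29.4% over all BRD8 regions, the share was 37.4% in 8q24.3 (28.2 to 47.3%), 26.7% in 1q32.1, 34.3% in 19q13.33 and 22.7% in 19q13.2, and in these 4 bands its interval took in the overall share. In 10q11.22 it was 66.7% (49.0 to 81.4%). Its 24 regions were weak, with a median BRD8 percentile of 5.68, and none of them was called in 16HBE14o-. In 8q24.3 none of the 40 was called there either, while 10 of 24 in 1q32.1, 8 of 23 in 19q13.33 and 4 of 22 in 19q13.2 were. Of all regions without CTCF 13.4% were called in 16HBE14o- on chromosome 8, 12.0% on chromosome 10 and 35.0% on chromosome 1. The strongest CTCF region with no BRD8 overlap lay in 17q21.31 (chromosome 17, 44270746 to 44271065, CTCF rank 5, signal 364.5). It overlapped BRD8 in 16HBE14o- and had a Calu3 BRD8 summit only 317 bp away. The next, in 3q22.3, 8q24.3, 11p11.2 and 11q12.2 (CTCF ranks 10, 11, 14 and 16), were all called for BRD8 in 16HBE14o- as well. Of these, 2 (3q22.3 and 11q12.2) had a Calu3 BRD8 summit 503 and 418 bp away. The share of all CTCF regions that overlap BRD8 in 16HBE14o- is not given here, so these calls cannot be set against it.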

How the data were processed

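The authors deposited narrowPeak lists, which are on hg19 per the file headers; used here were Calu3 BRD8, Calu3 CTCF and 16HBE14o- BRD8. Each combines 2 replicates by the irreproducible discovery rate, per the series' design text. Aligner, peak caller, control library and settings are not given in the sources used here. The authors' deposited signal, which sorts each list, was used for ranks within a list only. The deposited score columns were not used, and summits were placed with the deposited offset from the peak start.

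Overlaps, ranks and intervals (exact Clopper-Pearson for shares, Newcombe for differences) came from Python 3.11.15 (scipy 1.17.1, pandas 2.3.3, numpy 2.4.6). With bedtools 2.31.1 the same region and overlap counts were obtained, and the code was tested on simulated data. Bands came from circlize 0.4.16 and figures from matplotlib 3.10.9. Percentiles give tied signals their mean rank.

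The comparisons, the alternatives and the rule for named regions were chosen with earlier results of these data known. The rule picked the 10 strongest BRD8 regions with and without CTCF and the 5 largest rank differences in each direction. It also picked the 5 strongest without CTCF by call in 16HBE14o- and the 5 of most peaks. The last picks were the 5 bands richest in regions without CTCF and the 5 strongest CTCF regions without BRD8. The text names only some members of several of these lists and gives the fullest values for some of each. Gene starts, gene lists and motifs were not analysed here, because the gene and promoter tables at hand are on another genome build, and no sequence is printed.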

Additional observations from a re-analysis of the deposited data

How the results depend on the processing

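No paired analysis was possible because each list pools both replicates, and for the same reason no replicate could be left out. Of 59 alternative values 27 stayed within the interval of the value reported. Shares and distances have no sign to lose; rho over all co-occupied regions and both differences kept theirs, while rho in the lower part of the BRD8 list turned to -0.09 with single peaks. With a reciprocal overlap of at least 50%, which turns on region width as well as position, 39.3% of BRD8 regions were co-occupied. Under this rule 20.0% of CTCF regions carried BRD8 and rho was 0.37. The median percentile without CTCF minus that with CTCF was then -13.6, and the difference in 16HBE14o- calls, without minus with CTCF, -12.9 points. With summits within 100 bp the shares were 63.7% and 32.4%, the median distance 27 bp and the 16HBE14o- difference -35.2 points. With regions up to 1 kb apart the shares were 73.6% and 39.6%, the distance 33 bp, the percentile difference -28.0 and the 16HBE14o- difference -34.2 points. With single peaks rho was 0.22, the distance 38 bp and the percentile difference -25.4. With 200 bp around each summit the shares were 68.4% and 34.9% and the 16HBE14o- difference -39.9 points. In the upper 50% of each list the shares were 64.6% and 33.2%, rho 0.20, the distance 25 bp, the percentile difference -22.0 and the 16HBE14o- difference -34.4 points; fewer regions in both lists leave fewer overlaps and a narrower range of ranks. Within the 4 classes of BRD8 signal the 16HBE14o- difference was -31.2, -27.5, -29.5 and -29.8 points, and, chosen after seeing the data, -28.6 points within deciles and -33.9 points with 16HBE14o- regions up to 1 kb away. The cause of the other shifts was not tested. The alternatives without chromosome 3 were also chosen after seeing the data. The alternatives for gene starts and motifs were not run. Depth is unknown, so weak sites missing from a list cannot be told apart from absent ones.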

Other observations

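Narrow BRD8 peaks stood almost entirely at the strong end of the BRD8 list. Among regions of a single peak in the strongest of the 4 signal classes, 343 of 1355 with CTCF (25.3%, 95% exact interval 23.0 to 27.7%) were narrower than the usual 476 bp, against 23 of 141 without CTCF (16.3%, 10.6 to 23.5%). Below that class such narrow regions were almost absent with or without CTCF, with at most 3 in any class. Within the strongest class regions with and without CTCF were not matched by BRD8 rank. The co-occupied share was 94.0% in decile 1 and 89.7% in decile 2. The comparison was chosen after other values had been seen, and how the authors' peak caller sets width was not given in the sources used here.

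BRD8 regions without CTCF lay somewhat farther from other BRD8 regions. The median distance to the nearest other BRD8 summit was 47.9 kb without CTCF (quartiles 13.7 and 141.4 kb) and 37.6 kb with it (quartiles 11.1 and 106.5 kb). Another BRD8 summit lay within 10 kb of 20.9% of the former (19.3 to 22.6%) and 23.1% of the latter (22.0 to 24.2%). The nearest co-occupied BRD8 summit was a median of 73.6 kb from a region without CTCF.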
